A study of Mus musculus with 5 samples.

Results

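The 8 genes Sox1, Pax6, Lhx2, Zic1, Neurog2, Neurod1, Olig2 and Pax3, which encode transcription factors of the neural and ectodermal lineages, were examined for binding of the zinc-finger transcription factor KLF5 in mouse embryonic stem (ES) cells. Every peak whose summit lay inside one of these genes or within 20 kb of its ends was taken, which gave 26 summits of the 45366 on assembled chromosomes, at 8 of 21887 protein-coding genes. Binding was mapped by ChIP-seq (sequencing of immunoprecipitated chromatin) in cells overexpressing KLF5 with a V5 tag, a short peptide recognised by an anti-V5 antibody. Per the labels these are wild-type ES cells derived from C57B6/J mice. The comparison libraries were a normal mouse IgG immunoprecipitate of the same V5-KLF5 cells and an anti-V5 immunoprecipitate of wild-type ES-D3 cells, an established mouse ES line, with input DNA of each kind of cell as the caller's background. No time or dose is given in the labels, and no other treatment than cross-linking before the immunoprecipitation. The cells carried KLF5 above its own level, so the sites are those of an overexpressed, tagged protein, and the files hold no expression values with which the state of the cells could be checked. The header of the untagged library names another mouse ES line, JM8.N4, so its line is uncertain.

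Transcription factors of the Krüppel-like family bind GC-rich sequence of the CACCC and GC-box type and take part in keeping ES cells undifferentiated. The 8 genes belong to programmes that ES cells leave off until they differentiate. Sox1 marks the neural plate, Pax6, Lhx2 and Zic1 act in neural progenitors of the forebrain, eye and dorsal neural tube, and the basic helix-loop-helix factors Neurog2, Neurod1 and Olig2 act in neurogenesis and in motor neuron and oligodendrocyte formation. Pax3 acts in the dorsal neural tube, the neural crest and muscle progenitors.

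Sequencing depth was similar in the 3 immunoprecipitates, with 21.8 to 24.5 M (mega) tags kept after duplicates were removed. Each group was 1 library, so no value has a replicate check and no p-value between groups could be had. With the anti-V5 antibody the V5-KLF5 cells gave 26 summits in the windows of the 8 genes. The IgG control of these cells and the untagged V5 control each gave 0 there, and each also gave 0 at all protein-coding genes (0% of genes for both), their whole lists holding 3 and 0 peaks. Weaker control signal, which the caller did not list, was not analysed here.

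Of the 9 start sites listed by RefSeq for 7 of the 8 genes, 3 had a V5-KLF5 peak over the stretch from 250 bases before to 50 bases after the site, namely those of Olig2 and Neurod1 and the downstream one of Lhx2. Over all protein-coding genes 44.5% of such stretches were overlapped by a peak. The 250 bases before these start sites are shown because they are the promoters that the factor's peaks reached, and those of Sox1 and Zic1 are shown beside them as the promoters, without a called peak, of the genes with the highest and the lowest strongest summit of the 8. Sequences are from RefSeq (GRCm38.p6, the assembly that mm10 names), 5′ to 3′ on the strand of the gene, and capitals mark every match to CCNCNCCC on either strand, a core of the KLF recognition sequence, with overlapping matches merged into 1 run.
Olig2 promoter, chr16:91225300-91225549, plus strand: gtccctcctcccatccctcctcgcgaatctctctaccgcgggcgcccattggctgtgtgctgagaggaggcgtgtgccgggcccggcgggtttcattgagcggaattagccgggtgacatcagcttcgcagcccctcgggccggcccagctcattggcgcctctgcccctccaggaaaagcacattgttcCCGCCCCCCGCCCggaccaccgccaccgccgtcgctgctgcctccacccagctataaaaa
Neurod1 promoter, chr2:79456637-79456886, minus strand: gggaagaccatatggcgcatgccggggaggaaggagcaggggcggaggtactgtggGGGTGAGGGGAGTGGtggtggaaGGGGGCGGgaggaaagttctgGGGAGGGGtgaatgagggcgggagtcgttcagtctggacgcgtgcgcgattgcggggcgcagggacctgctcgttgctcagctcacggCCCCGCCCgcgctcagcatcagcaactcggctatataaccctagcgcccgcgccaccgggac
Lhx2 downstream promoter, chr2:38351058-38351307, plus strand: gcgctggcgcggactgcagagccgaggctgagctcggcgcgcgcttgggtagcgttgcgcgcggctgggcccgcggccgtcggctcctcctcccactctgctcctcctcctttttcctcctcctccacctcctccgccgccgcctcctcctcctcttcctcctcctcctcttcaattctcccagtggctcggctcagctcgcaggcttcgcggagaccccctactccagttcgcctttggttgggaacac
Sox1 promoter, chr8:12395269-12395518, plus strand: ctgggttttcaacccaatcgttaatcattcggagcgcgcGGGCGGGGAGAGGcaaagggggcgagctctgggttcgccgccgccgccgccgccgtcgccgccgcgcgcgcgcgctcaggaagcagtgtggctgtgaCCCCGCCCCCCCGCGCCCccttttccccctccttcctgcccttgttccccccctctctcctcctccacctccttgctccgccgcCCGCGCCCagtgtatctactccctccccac
Zic1 promoter, chr9:91365769-91366018, minus strand: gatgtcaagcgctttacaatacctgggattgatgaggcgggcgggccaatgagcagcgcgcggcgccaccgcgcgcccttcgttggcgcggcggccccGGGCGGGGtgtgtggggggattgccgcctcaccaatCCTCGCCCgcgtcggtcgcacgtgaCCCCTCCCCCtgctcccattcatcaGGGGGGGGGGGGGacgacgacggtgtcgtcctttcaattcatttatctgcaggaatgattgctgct

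The Olig2 stretch held 2 matches to CCNCNCCC, with first bases at -60 and -55 relative to the start site, and the Neurod1 stretch held 5. The summit over Neurod1 lay 97 bases before the start site and 38.5 bases from the centre of the nearest match, and the summit over Olig2 lay 126 bases before it and 69.5 bases from the nearest match. The Lhx2 stretch held 0 matches to CCNCNCCC, 0 to CACCC and 0 to GGGCGG. The summit of the peak over this start site lay 333 bases before it, outside the 250 bases searched, and the sequence under that summit was not searched. The Sox1 stretch held 6 and the Zic1 stretch 10, of which several are overlapping matches within a run of G. Of the promoters without a peak that are not printed, the upstream one of Lhx2 held 8 matches, that of Neurog2 4, and those of Pax6 held 1 and 0. Of the 3 promoters under a peak 2 held CCNCNCCC, as did 5 of the 6 not under a peak. Among all protein-coding genes, 52.9% of 21263 promoters held it, 73.0% of those under a peak and 36.8% of the others. The members' promoters were GC-rich, with a median of 66.8% G and C over the 9 stretches, against 55.6% over all protein-coding promoters. The median was 62.0% over those under a peak and 49.2% over the others. CACCC was found in 5 of the 9 and in 54.2% of all promoters, and GGGCGG in 6 of the 9 and in 42.6% of all. Under a peak and without one, CACCC was in 61.1% and 48.6% of all promoters, and GGGCGG in 69.4% and 21.2%. Motif shares and base composition thus differed together, and their separate relation to the peaks was not tested. A match describes the letters of the stretch and is not a measured site.

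All 8 genes had at least 1 V5-KLF5 summit, where 74.7% of protein-coding genes had 1 or more. The summits were mostly weak. Their fold enrichments over input ran from 2.93 to 13.2 with a median of 4.40, against a median of 5.18 over all summits (quartiles 4.15 and 7.45). Only 7 of the 26 reached a fold enrichment of 5 (26.9%, against 53.8% of all summits), and 1 reached 10 (3.85%, against 13.0% of all). The pileup, the number of extended tags at the summit, ran from 11 to 53 with a median of 18, against a median of 24 over all summits. The input background was the lowest value the caller applies, 3.10, at 17 of the 26 summits (65.4%) and at 37.9% of all, and its highest value at the 26 was 5.37. At these 17 an input lower than the floor could not be seen.

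The order of the genes by their strongest summit was Sox1, Pax6, Lhx2, Olig2, Neurog2, Neurod1, Pax3 and Zic1. A fold enrichment of 5 was reached at 5 of the 8 genes, against 63.8% of protein-coding genes, and a fold enrichment of 10 at Sox1 alone, 1 of 8, against 28.0%. The fold enrichment of the strongest summit was given an exact Poisson 95% interval from the pileup, which covers counting error only. It does not allow for the summit being the highest point of its peak or the strongest of its gene. Each gene's interval overlapped that of the next in order, so these intervals do not settle the order of neighbours. Overlap does not show that a pair of genes is equal. Of the 28 pairs of genes, 8 had intervals that did not overlap. Sox1 stood apart from each of the 6 genes other than Pax6, and Pax6 stood apart from Pax3 and Zic1.

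**Figure D1:**
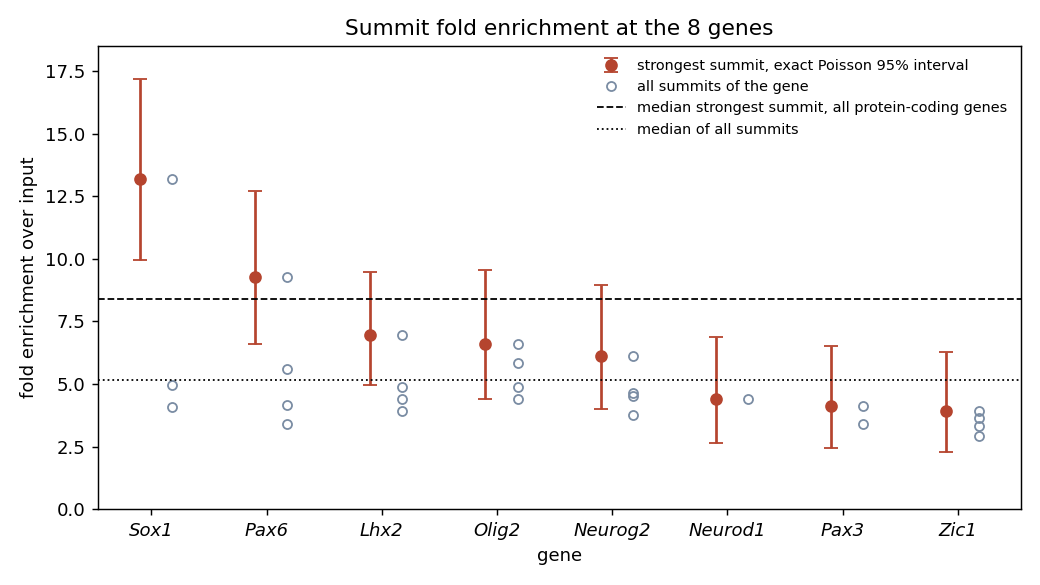
Fold enrichment over input (vertical axis) of the strongest V5-KLF5 summit of each gene (filled points, bars are exact Poisson 95% intervals of counting error) and of all its summits (open points), with the medians of all summits and of the strongest summits of all protein-coding genes as lines. Sox1 at 13.2 and Pax6 at 9.27 lie above the line at 8.41, and the other 6 genes lie between 3.90 and 6.96.

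Sox1, a SOXB1 factor of the earliest neural plate, had 3 summits on chromosome 8 around the gene at 12395519 to 12399555 (mm10), none of them inside it. The strongest, in the peak at 12400774 to 12401246, lay 1388 bp beyond the 3′ end, with a pileup of 53 and a fold enrichment of 13.2 (interval 9.93 to 17.2). It stood at the 93.8 percentile of all summits and lay inside the lncRNA gene Sox1ot, which spans Sox1. The others lay 3845 and 10160 bp before the start site, with fold enrichments of 4.09 and 4.97, and the first of these was also inside Sox1ot. No summit lay within 1 kb of Sox1, whose promoter held 6 matches to CCNCNCCC.

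Pax6, the paired-box factor of eye and forebrain, had 4 summits on chromosome 2, all inside the gene at 105668896 to 105698410. The strongest, in the peak at 105677410 to 105678178, lay 9035 bp into the gene and 4532 bp before its downstream start site, with a pileup of 37 and a fold enrichment of 9.27 (interval 6.60 to 12.7). The next, at 105680597 to 105681037, lay 1627 bp before that start site with 5.62. The remaining pair, 5030 and 6231 bp after it, had 4.15 and 3.42 and lay nearer to an end of Elp4, a subunit gene of the Elongator complex whose end overlaps that of Pax6. Neither of the 2 listed Pax6 promoters had a peak.

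Lhx2, a LIM-homeodomain factor of the forebrain and eye field, had 4 summits on chromosome 2, of which 3 lay inside the gene at 38339271 to 38369737. The peak at 38350403 to 38351404, the longest of the 26 at 1002 bp, reached across the downstream start site whose promoter is printed above. Its summit lay 333 bp before that site, with a pileup of 38 and a fold enrichment of 6.96 (interval 4.98 to 9.49). The pileup was close to the 37 of Pax6, and the lower fold enrichment stood on an input background of 4.60 in place of 3.10. The other Lhx2 summits, 12398 bp outside the left end, in the lncRNA gene Gm27197 and 734 bp inside the right end, had 4.88, 3.90 and 4.40. The last of them had the highest background of the 26, 5.37.

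Zic1, a zinc-finger factor of the dorsal neural tube and cerebellum, had 4 summits on chromosome 9 and the lowest strongest fold enrichment of the 8 genes, 3.90 (interval 2.29 to 6.28), from a pileup of 15. Of these summits 3 lay 3392 to 4474 bp after the start site of the gene, which spans 91358058 to 91365768, with fold enrichments of 3.66, 2.93 and 3.90. The value of 2.93, from a pileup of 11, was the lowest of the 26. The last lay 15757 bp before the start site, inside the neighbouring gene Zic4, with 3.31. By distance to a gene end, 3 of the 4 summits were nearer to Zic4 than to Zic1. Those with 2.93 and 3.66 nevertheless lay inside Zic1. They were 3766 and 3392 bp from its nearer end, against 3629 and 3255 bp from an end of Zic4 that lies inside Zic1. None of them lay over the Zic1 promoter, which had 10 matches to CCNCNCCC.

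Among the basic helix-loop-helix genes, Olig2 and Neurog2 had 4 summits each and Neurod1 had 1. Those of Olig2, a factor of motor neuron and oligodendrocyte progenitors at 91225550 to 91228677 on chromosome 16, all lay before the start site and within 4179 bp of each other. At 4305, 3164, 647 and 126 bp before it, their fold enrichments were 5.86, 4.88, 4.39 and 6.59 (interval of the last 4.39 to 9.54), and the last is the promoter summit in the peak at 91225310 to 91225718. Those of Neurog2, a proneural factor at 127632733 to 127635636 on chromosome 3, lay 7695, 4556 and 1009 bp before the listed start site and 1264 bp after it, with 3.76, 6.10, 4.52 and 4.64. The summit with 6.10 (interval 4.00 to 8.96), in the peak at 127628314 to 127629074, lay inside the lncRNA gene Gm40147. Neurod1, a factor of neuronal differentiation at 79452637 to 79456636 on chromosome 2, had its summit in the peak at 79456665 to 79456967 over the promoter, with a pileup of 17 and a fold enrichment of 4.39 (interval 2.66 to 6.89).

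Pax3, a paired-box factor of the neural crest and dorsal neural tube, is the longest of the 8 genes at 95870 bp (chromosome 1, 78101267 to 78197136) and had 2 summits. The summit inside the gene, 7680 bp from its right end in the peak at 78189315 to 78189575, had a fold enrichment of 3.42. The other, in the peak at 78216243 to 78216800, lay 19271 bp beyond that end inside the coding gene Gm2102, with 4.10 (interval 2.45 to 6.51). It was the outermost summit inside the 20 kb limit. The nearest one outside the limit, also beyond Pax3 at 20480 bp, had 6.35, and the next, at Zic1 at 21217 bp, had 4.14. At Neurod1 a pair of summits 22849 and 23969 bp from the gene had 7.22 and 11.2, above the value inside the window.

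**Figure D2:**
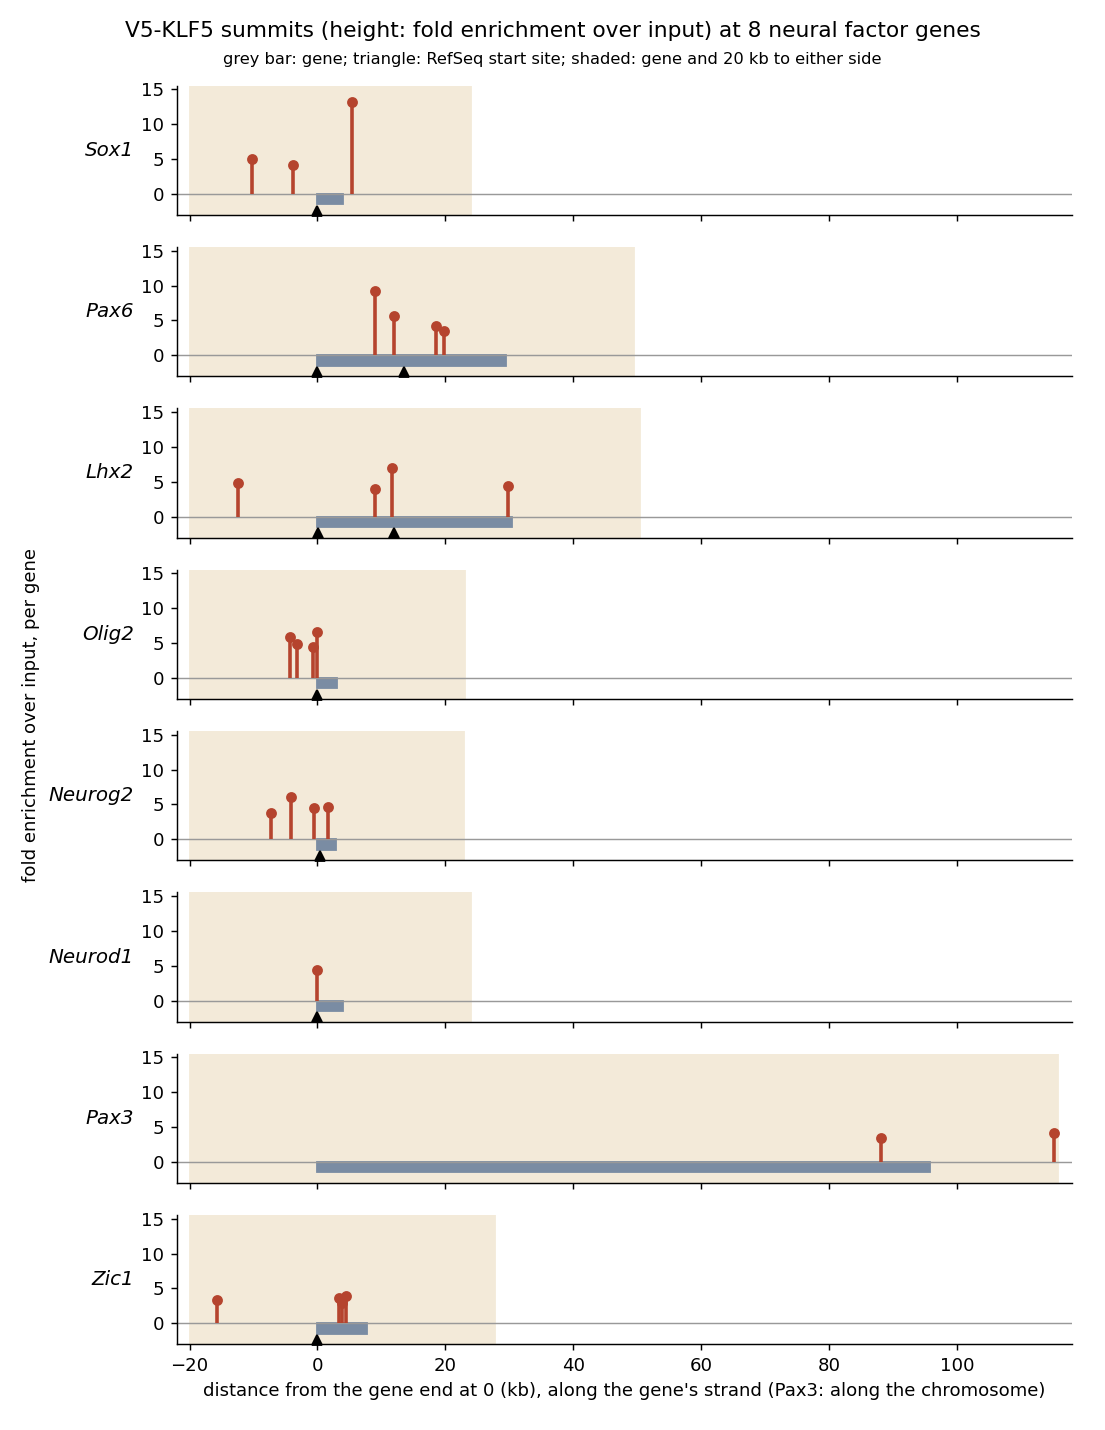
Position of each V5-KLF5 summit (horizontal axis, kb from the gene end at 0, along the strand of the gene and for Pax3 along the chromosome) and its fold enrichment over input (vertical axis) at the 8 genes, with genes as grey bars, RefSeq start sites as triangles and the 20 kb windows shaded. All 4 summits of Olig2 lie before its start site, all 4 of Pax6 lie inside the gene, and the 13.2 of Sox1 lies just beyond the gene.

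Of the 26 summits 12 lay inside their gene and 14 outside it. Within 1 kb of a gene end lay 5 (19.2%), against 26.6% of all summits, a gap of few summits at this number. The strongest summit lay within 1 kb of a listed start site at 3 genes, Olig2, Neurod1 and Lhx2, of the 7 with one listed. The matching share of all protein-coding genes was not computed, so 3 of 7 cannot be called high or low. For 6 of the 26, the nearest end of a coding gene was that of another gene. These were 3 at Zic4, 2 at Elp4 and 1 at Gm2102, so a count by nearest gene gives Pax6 and Pax3 fewer summits and Zic1 only 1. Yet the 2 nearer to Elp4 lay inside Pax6, and those of 2.93 and 3.66 nearer to Zic4 lay inside Zic1. Another 4 lay inside lncRNA genes.

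A gene with more summits has more chances of a strong one, so each gene was set beside all other coding genes with the same number of summits. The strongest summits of Sox1 and Pax6 lay above the median of their class and those of the other 6 genes below it. Sox1, with 3 summits, stood at the 85.1 percentile of 2611 genes, whose median was 8.05. Pax6 stood at the 52.3 percentile of the 2029 genes with 4 summits, whose median was 9.03, and Lhx2, Olig2 and Neurog2 stood at the 26.1, 21.1 and 15.4 percentiles of the same class. Of these 2029 genes, 0 had a strongest summit below that of Zic1. Neurod1, with 1 summit, stood at the 26.7 percentile of a class with a median of 5.59, and Pax3, with 2, at the 4.81 percentile of a class with a median of 7.08.

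**Figure D3:**
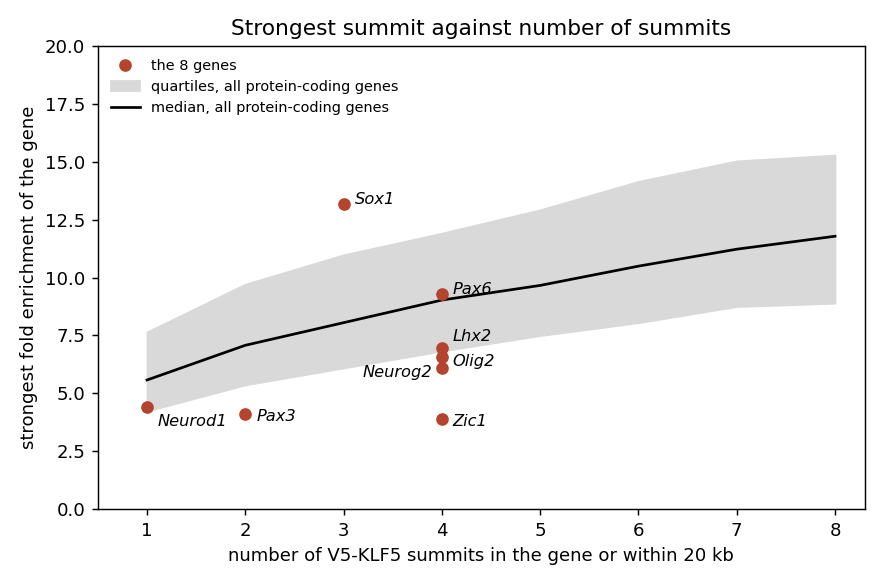
Strongest fold enrichment of a gene (vertical axis) against its number of V5-KLF5 summits in the gene or within 20 kb (horizontal axis), for the 8 genes (points) and for all protein-coding genes with that number (line, median; band, quartiles). Sox1 lies above the band at 3 summits. Olig2, Neurog2 and Zic1 lie below the band at 4 summits, Zic1 lowest at 3.90, and Pax3 lies below it at 2.

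The genes were then set beside the pluripotency genes that ES cells use and the genes of another lineage, mesoderm. The median strongest fold enrichment was 6.35 at the 8 neural factor genes, against 6.10 at 11 mesoderm genes with a summit, 17.4 at 19 pluripotency genes and 8.41 at the 16353 protein-coding genes with a summit. The strongest summit of each of the 8 genes lay below the median of the pluripotency genes. That list was led by Fbxo15 at 32.3, Esrrb at 28.5 and Dppa5a at 26.3 and was lowest at Nr0b1 with 7.32, so Sox1 and Pax6 lay within its range and the other 6 below it. A fold enrichment of 10 was reached at 1 of the 8 genes, at 2 of 12 mesoderm genes and at 15 of 19 pluripotency genes. The mesoderm list was led by Gsc at 13.2, Eomes at 11.6 and Tbx6 at 7.62, and 1 of its 12 genes, Mixl1, had no summit.

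The gap was smaller between single summits than between strongest summits. The median fold enrichment over all summits in the windows was 4.40 at the neural factor genes (26 summits), 4.39 at the mesoderm genes (47 summits) and 5.61 at the pluripotency genes (126 summits). Summits with a fold enrichment of at least 10 made up 3.85% of those at the neural factor genes, 4.26% at the mesoderm genes and 23.0% at the pluripotency genes. A peak lay over a listed promoter at 3 of 7 neural factor genes with one, 3 of 8 mesoderm genes and 11 of 13 pluripotency genes, against 47.1% of protein-coding genes. The number of summits also differed. The 8 genes had 1 to 4 summits with a median of 4, against a median of 4 (range 0 to 8) at mesoderm genes, 6 (range 3 to 14) at pluripotency genes and 2 at all protein-coding genes. Per 100 kb of window the 8 genes had a median of 6.28 summits, against 7.86 at mesoderm genes, 10.6 at pluripotency genes and 2.74 at all protein-coding genes. These medians include genes without a summit. Pooled over the windows the density was 5.22 at the 8 genes, 7.65 at mesoderm genes and 10.1 at pluripotency genes. For all protein-coding genes it was 3.43, with overlapping windows each counted. The median gene length was 5.87 kb at the 8 genes and 17.2 kb at all protein-coding genes. The density of single genes ran from 1.47 at Pax3 and 2.27 at Neurod1 to 9.27 at Olig2 and 9.32 at Neurog2. The median number and median density of summits at the 8 genes were thus high beside all genes, and not beside the pluripotency or mesoderm lists. Pax3 and Neurod1 themselves lay below the median density of all protein-coding genes. Genes of a list are not replicates, and the lists were compared by their values with no test.

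The 8 genes were also set beside 43 other neural and ectodermal transcription factor genes, of which 42 had a summit. The median strongest fold enrichment was 6.35 at the 8 genes and 7.32 at these 42. The others had a median of 4 summits, as the 8 genes did, with a range of 0 to 13. Per 100 kb of window their median was 7.13 summits, against 6.28 at the 8 genes. A fold enrichment of 10 was reached at 9 of the 43. The proneural gene Neurog3, which acts in endocrine pancreas, led with 23.9, followed by Lmx1b, a LIM-homeodomain gene of the midbrain and limb, with 20.9 and Gbx2, a hindbrain homeobox gene also expressed in ES cells, with 19.0. Relatives of the 8 genes lay on both sides of them. Sox1 had 13.2, against 5.37 at Sox21 and 3.90 at Sox3. Lhx2 had 6.96, against 8.05 at Lhx5 and 5.39 at Lhx1, and Olig2 had 6.59, against 5.62 at Olig3 and 4.70 at Olig1. Neurog2 had 6.10, against 18.1 at Neurog1 and 23.9 at Neurog3. Pax6 had 9.27 and Pax3 4.10, against 18.8 at Pax7 and 9.16 at Pax2. Zic1 had 3.90, against 4.14 at Zic4 and 9.21 at both Zic2 and Zic5. Zic2 and Zic5 have the same value, as neighbours whose windows overlap, and 4 of the summits of Zic4 are those listed above for Zic1. The gene without a summit was Neurod4. The relatives other than Neurog3 and Neurod4 were named here after their values were seen.

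**Figure D4:**
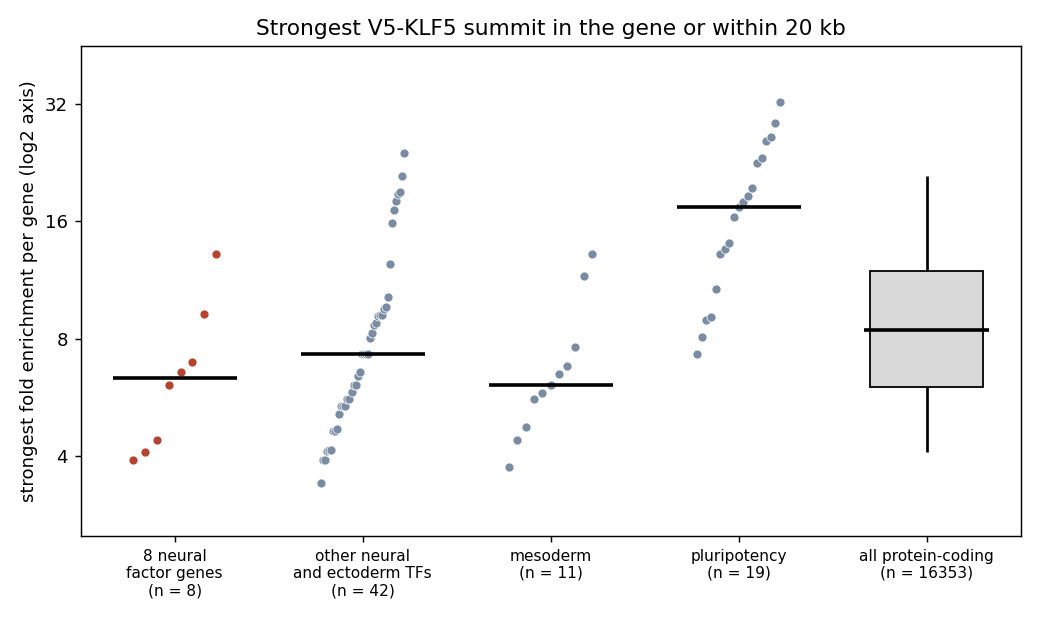
Strongest fold enrichment per gene (vertical axis, log2 scale) of V5-KLF5 summits in the gene or within 20 kb, each point 1 gene with a summit, with the list median as a bar; for all protein-coding genes the box spans the quartiles and the whiskers the 5th to 95th percentiles. The 8 neural factor genes centre on 6.35 and the pluripotency genes on 17.4.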

How the data were processed

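Peak lists of 3 immunoprecipitates were used, from 5 libraries of 1 per group. Per the file headers, the authors called peaks with MACS2 2.1.0.20140616 on single libraries against the input of the same cells, with 51 bp tags extended to 250 bp, 1 tag per position kept, the larger dataset scaled to the smaller and a q-value cutoff of 0.05. The submitters' processing notes name mm10 and Bowtie 0.12.8 without its settings. For each peak the authors deposited the summit position, the pileup signal, the −log10 p-value and q-value, and the fold enrichment. This last is a ratio in which 1 is added to the pileup and to the input background. All of them are per-peak values of the authors, used to describe, rank and filter peaks within the list. The input background was solved from the ratio, and its Poisson p matched the deposited one within 1% (on the −log10 scale) at 99.98% of peaks. The handling of reads with several map positions is not given in the sources used.

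Gene and start positions came from RefSeq tables of GRCm38.p6. All 82 symbols of the lists matched. A start site is listed for 7 of the 8 genes, not for Pax3. A summit inside a gene or within 20 kb of its ends counted for every gene whose window held it. Motifs were searched on both strands of the 250 bases before each start site. The assignment, motif search and intervals were tested on simulated data. Python 3.11.15, pandas 2.3.3 and scipy 1.17.1 were used. Of the members every summit was given, and of each list the 3 genes with the strongest summit and genes with none. The members and lists were chosen with earlier results of these data known. No test was run between groups, because each is 1 library. The genes were placed among coding genes with the same number of summits after the data were seen.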

Additional observations from a re-analysis of the deposited data

How the results depend on the processing

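With 7 alternatives for each result, the number of summits at the 8 genes was 26 in the reported setting. It moved to 42 within 50 kb, to 16 inside the genes or within 1 kb, and to 7 both at a −log10 q of at least 10 and at a fold enrichment of at least 5. With those stricter thresholds Neurod1, Zic1 and Pax3 had no summit left, and Sox1 had none inside the gene or within 1 kb. Genes with a fold enrichment of 10 were 1 in the reported setting, 2 within 50 kb, where Neurod1 took 11.2 from a summit beyond the window, and 0 inside the genes or within 1 kb. The median strongest fold enrichment of the 8 genes was 6.35 in the reported setting and 6.78 within 50 kb. Inside the genes or within 1 kb it was 4.64 over the 7 genes left, and under each of the stricter thresholds, which remove weak summits by construction, 6.96 over the 5 genes left. That of the pluripotency genes moved to 9.002 only inside the genes or within 1 kb. In all 7 alternatives the pluripotency median was higher, by 1.94 to 2.74 times. Of the 49 values of single genes under the alternatives, only the 11.2 of Neurod1 lay outside the Poisson interval of its gene. This count was largely fixed in advance and is no measure of robustness. The stricter thresholds cannot change a strongest summit that they keep, and a wider window can only keep or raise it. Genes left without a summit gave no value. The same summit stayed strongest at 4 of the 8 genes within 50 kb, and at 5 of the 7 left inside the genes or within 1 kb. No paired analysis was possible because each group has 1 library. At pileups of 11 to 53, counting error spans a wide range for single summits, and a site below the threshold cannot be told from an unbound one.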

Other observations

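Beyond the 20 kb windows, another 16 V5-KLF5 summits lay up to 50 kb from the 8 genes, and 2 of them had a fold enrichment of at least 10. The stronger, with 14.4 and a pileup of 58, lay 32267 bp from Sox1 in the peak at 12431117 to 12432189 on chromosome 8 (mm10), inside the lncRNA gene Sox1ot. It exceeds the 13.2 of the strongest summit inside the window, which lies in the same lncRNA gene. The other, with 11.2, lay 23969 bp from Neurod1 and 320 bp inside the neighbouring gene Cerkl. Of the 6 summits in this outer range at Olig2, 2 lay inside Olig1, the related gene next to it, with fold enrichments of 4.70 and 4.39, and the summit with 6.49 lay inside the lncRNA gene Gm41492. No summit lay in this range at Pax6 or Neurog2.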
